A study of Mus musculus with 12 samples.

Results

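A group of 10 genes that mark immature or progenitor epithelium, or that specify the thymic epithelial lineage, was followed in sorted mouse thymic epithelial cells (TEC): Trp63, Pdpn, Itgb4, Itga6, Ly6a, Plet1, Sox9, Igfbp5, Pax1 and Pax9. The 10 genes were listed by symbol, with earlier results of these data known, from 34547 genes with an estimated count, and all 10 had counts in every library and passed the low-count filter in every comparison. Libraries came from cortical TEC (cTEC, sorted as Epcam+CD45-Ly51+UEA1-) and medullary TEC (mTEC, sorted as Epcam+CD45-Ly51-UEA1+). Both subsets were taken from C57BL/6 wild-type (WT) mice and from Aβ0/0 mice (AB0 in the labels), in which the MHC class II gene H2-Ab1 is disrupted and MHCII is lacking in every cell. Each of the 4 groups had 3 libraries, and each library was a pool of 5 to 10 mice aged 4 to 6 weeks. The WT and Aβ0/0 mice came from different sources, so genotype and source of the animals cannot be told apart.

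Trp63 encodes p63, a transcription factor of basal cells in stratified epithelia, and its ΔN isoforms, made from an internal promoter, maintain the proliferative capacity of TEC. Integrin α6 (Itga6) and integrin β4 (Itgb4) pair as the laminin receptor of hemidesmosomes. Pdpn (podoplanin), Ly6a (Sca-1) and Plet1 are surface proteins used to sort immature TEC, Sox9 is a progenitor transcription factor of many epithelia, and Igfbp5 is a secreted protein that binds insulin-like growth factors. Pax1 and Pax9 are paired-box factors of the pharyngeal pouch endoderm, from which the thymus develops.

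Sequences are shown for the members whose differences stood out below. Transcripts of Trp63 were assigned to the upstream (TA) or internal (ΔN) start by their annotated start position. These starts give different first coding exons. The coding part of each is given from the GENCODE M21 transcripts (GRCm38, plus strand) with the start codon in capitals; the internal one lies at chr16:25802060-25802101 and the upstream one at chr16:25684290-25684351.
Trp63-201, internal start: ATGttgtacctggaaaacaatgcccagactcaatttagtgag
Trp63-202, upstream start: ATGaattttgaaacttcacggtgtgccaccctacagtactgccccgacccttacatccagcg

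RefSeq promoter sequences (GRCm38.p6) were at hand for 5 of the 10 genes. The 250 bases before the RefSeq start are shown for Pax1, the member with the widest gap in favour of cTEC, for Plet1, the member higher in mTEC, and for Igfbp5, the member that passed the test between genotypes. The search covered 4 motifs on both strands: the core GACGC recognised by Foxn1, the TATA box as TATAAA, the GC box as GGGCGG and the letters CCAAT. No motif contains another. The Foxn1 core was found in Pax1 and in 22.6% of all 32851 promoters, and the TATA box in Plet1 and in 12.4%. The GC box was found in Pax1 (32.7% of all) and CCAAT in both Pax1 and Plet1 (33.8% of all), and Igfbp5, Pdpn and Pax9 held none of the 4 in this window. Capitals mark the Foxn1 core in Pax1 and the TATA box in Plet1, and Igfbp5 is printed without capitals. The Pax1 sequence lies at chr2:147364744-147364993 on the plus strand, within an intron of Pax1-202, an annotated transcript that starts further upstream, that of Plet1 at chr9:50494275-50494524 on the plus strand and that of Igfbp5 at chr1:72874866-72875115 on the minus strand.
Pax1: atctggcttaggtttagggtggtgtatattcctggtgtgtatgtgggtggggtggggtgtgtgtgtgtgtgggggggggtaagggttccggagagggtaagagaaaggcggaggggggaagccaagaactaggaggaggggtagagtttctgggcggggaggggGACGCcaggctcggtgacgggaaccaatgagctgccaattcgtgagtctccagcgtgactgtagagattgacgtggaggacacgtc
Plet1: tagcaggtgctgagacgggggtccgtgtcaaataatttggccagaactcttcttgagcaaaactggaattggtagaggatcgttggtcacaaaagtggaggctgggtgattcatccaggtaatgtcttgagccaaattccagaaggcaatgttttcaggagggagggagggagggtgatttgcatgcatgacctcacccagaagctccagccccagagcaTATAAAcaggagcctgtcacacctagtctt
Igfbp5: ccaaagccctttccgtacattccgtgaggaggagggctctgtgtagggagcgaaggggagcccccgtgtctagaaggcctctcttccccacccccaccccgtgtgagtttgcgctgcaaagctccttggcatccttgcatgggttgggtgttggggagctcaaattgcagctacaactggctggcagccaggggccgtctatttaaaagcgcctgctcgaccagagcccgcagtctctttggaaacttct

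Libraries held 21710319 to 36139815 estimated counts. H2-Ab1 stood at 6507 to 11199.5 CPM (estimated counts scaled to a common library size) in the 6 WT libraries and at 1900.2 to 3853 CPM in the 6 Aβ0/0 libraries, so the genotype labels and the disrupted gene went the same way, although transcript counts do not show whether the protein is made. Of 10 cTEC genes, 9 passed the test between subsets in WT (edgeR, below), all lower in mTEC, and of 13 mature mTEC genes 6 passed, all higher in mTEC. Markers of other cells were also counted: fibroblast markers summed to 2374 to 3258 CPM in the cTEC libraries and to 266 to 630.1 CPM in the mTEC libraries (Dcn was the highest, and none was at 0 in all libraries of a group), with endothelial markers at 26.4 to 96.0 CPM, dendritic and B cell markers at 1.32 to 27.4 CPM and erythroid markers at 0.276 to 468 CPM over all 12, and thymocyte markers to 352 to 1031 CPM and 68.8 to 200.5 CPM. Replicate 3 of WT cTEC stood apart from its group: 27.3% of its counts fell on transcripts under 1000 bases, against 16.4% and 14.3% in replicates 1 and 2. Smaller departures under 1000 bases were seen in Aβ0/0 cTEC replicate 2 (21.0% against 14.6% and 17.0%) and Aβ0/0 mTEC replicate 2 (27.9% against 20.1% and 23.8%). In each group replicate 1 had the largest share of counts on transcripts over 4000 bases. This share was 20.4% in WT cTEC and 21.8% in Aβ0/0 cTEC (against 14.1% and 16.7%). In mTEC it was 17.2% in WT and 19.7% in Aβ0/0 (against 13.5% and 15.6%). Several results below are also given without such a library.

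Levels of the 10 genes spanned a wide range. Compared per length, as TPM (estimated abundance corrected for transcript length and scaled to a common total) summed over all transcripts of a gene, Ly6a was the highest of the 10 in all 4 groups, with means from 2303 ± 454 TPM (SD, n = 3) in Aβ0/0 mTEC to 6314 ± 1777 TPM in WT cTEC, and its lowest library lay above every library of the gene next in order. In WT cTEC the order then ran Pax1 (352 ± 132 TPM), Itga6 (281 ± 32.7), Trp63 (234 ± 73.5), Igfbp5 (175 ± 54.2), Itgb4 (118 ± 47.6), Sox9 (56.2 ± 16.8), Pdpn (48.4 ± 2.91), Pax9 (44.0 ± 15.7) and Plet1 (21.1 ± 13.3), and each of these overlapped the next. In WT mTEC, Itga6 came after Ly6a at 397 ± 27.6 TPM, apart from the rest. Igfbp5 (76.0 ± 13.4 TPM) and Plet1 (72.9 ± 8.03 TPM) overlapped, and Pax1, Trp63, Itgb4 and Sox9 followed from 58.0 ± 1.99 down to 48.3 ± 7.72 TPM, each overlapping the next. Pax9 (25.2 ± 3.61 TPM) and Pdpn (13.05 ± 2.88 TPM) were below all of them and apart from each other. Plet1 was thus last of the 10 in WT cTEC but among the upper ones in WT mTEC, and Pdpn was last in WT mTEC. The place of Itga6 rested on processed transcripts: over protein-coding transcripts alone, a sum chosen after seeing the data, it had 44.7 ± 10.7 TPM in WT mTEC, where it came after Sox9, and 74.3 ± 43.7 TPM in WT cTEC, where it came after Itgb4.

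**Figure D1:**
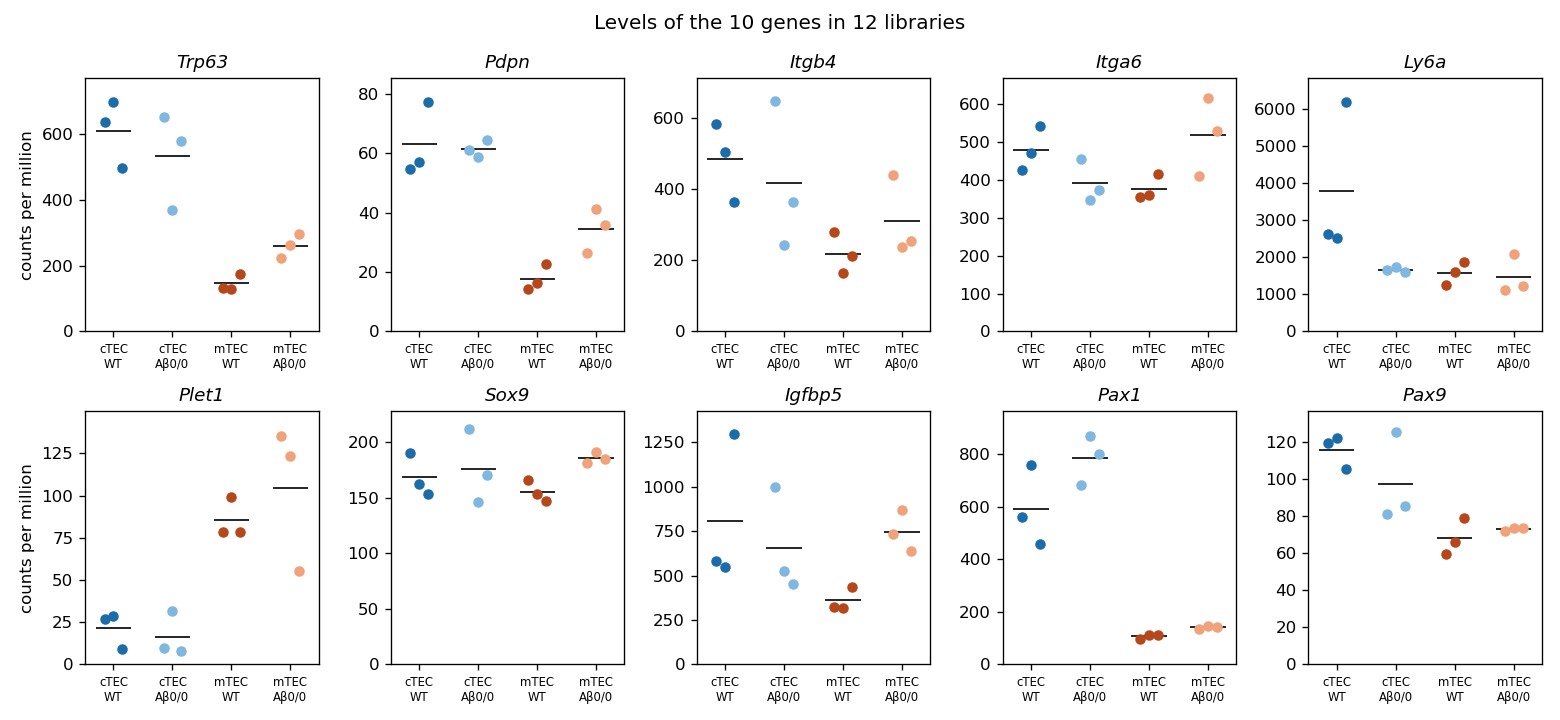
Level of each of the 10 genes in CPM (vertical axes start at 0 and differ between panels) in the 12 libraries, by group (horizontal axis); points are libraries and black bars are group means of 3 libraries. Trp63, Pdpn, Pax1 and Pax9 sit lower in both mTEC groups than in the cTEC groups, and Plet1 sits higher.

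The first comparison asked how the genes differ between the subsets in WT mice. Of the 10 genes, 6 passed the test (edgeR quasi-likelihood test on 6 libraries, Benjamini-Hochberg adjusted over 18667 genes, threshold 0.05): Pax1, Trp63, Pdpn, Itgb4 and Pax9 were lower in mTEC than in cTEC, and Plet1 was higher. Over all genes tested, 26.8% passed, 8.81% lower and 18.0% higher in mTEC, so most genes that passed went the opposite way to these 5. The median log2 difference of the 10 genes was -1.16, against 0.06 over all genes. In 8 of the 10 every cTEC library lay above every mTEC library, as in 17.2% of all genes, and in Plet1 every mTEC library lay above, as in 30.1%. In bulk libraries, fewer cells of a type and less RNA per cell cannot be told apart.

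Among the lineage factors, Pax1 (chr2:147361925-147393295, plus strand) had 560.2, 759 and 458 CPM in WT cTEC and 98.4, 113 and 112 CPM in WT mTEC. The groups were far apart, and the difference was 5.49-fold (log2 -2.46, SE 0.26, adjusted p = 8e-04). Pax9 (chr12:56691767-56712822, plus strand), its closest relative in sequence, had 119.8, 122 and 106 CPM in WT cTEC and 59.6, 66.3 and 79.3 CPM in WT mTEC. This smaller gap, log2 -0.76 (SE 0.20, adjusted p = 0.0254), passed only narrowly: its adjusted p was 0.0544 with the pool of mice as a block, and it lay between 0.0529 and 0.109 when any one library other than WT cTEC replicate 3 was left out. Sox9 (chr11:112782224-112787760, plus strand), with 153 to 189.9 CPM in WT cTEC and 147 to 166 CPM in WT mTEC, overlapped between the subsets, and the interval of its log2 difference ran from -0.57 to 0.34.

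Trp63 (chr16:25683763-25892102, plus strand) had 638, 698 and 497 CPM in WT cTEC and 133, 129.5 and 176 CPM in WT mTEC, with no overlap, a 4.18-fold difference (log2 -2.06, SE 0.25, adjusted p = 0.00137). Of 14 other genes of basal keratinocytes or linked to p63, 9 passed in WT, but in both directions: 5 were lower in mTEC and 4 higher. Among those with the largest difference, Jag2, a Notch ligand, fell by 2.49 on the log2 scale from 436 ± 135 to 77.6 ± 16.2 CPM, and Bnc1, a basal-cell zinc finger protein, was lower by a log2 difference of -2.41. Tfap2c, an AP-2 transcription factor, was higher in mTEC by 2.17, a call lost without mTEC replicate 1, 2 or 3 (adjusted p = 0.138, 0.0953 and 0.053), and Krt17, a keratin of basal and activated epithelium, rose by 1.88 from 761 ± 119 to 2793 ± 357 CPM.

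Pdpn (chr4:143267431-143299564, minus strand) had 54.9, 57.2 and 77.3 CPM in WT cTEC and 14.4, 16.2 and 22.8 CPM in WT mTEC (log2 -1.83, SE 0.28, adjusted p = 0.0032). Every cTEC library lay above every mTEC library. Itgb4 (chr11:115974709-116008412, plus strand) had 585, 507 and 364 CPM against 281, 165 and 212 CPM (log2 -1.14, SE 0.29, adjusted p = 0.0213). Without WT cTEC replicate 1, mTEC replicate 2 or mTEC replicate 3 the adjusted p of Itgb4 rose to 0.0642, 0.0977 and 0.0914. Its partners followed the same direction: of 10 genes of hemidesmosomes and laminin binding, all 10 had lower means in WT mTEC and 5 passed, led by the integrin chain Itga3 (263 ± 13.8 against 117 ± 12.9 CPM, log2 -1.17), the laminin chain Lama3 (log2 -1.14) and the linker protein Plec (log2 -1.004). Without mTEC replicate 2 or 3 the calls of Lama3 (adjusted p = 0.0567 and 0.0556) and Plec (0.077 and 0.0703) were lost, while Itga3 passed without any one library.

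Plet1 (chr9:50494525-50505482, plus strand) was the reverse case, with 27.1, 28.9 and 9.18 CPM in WT cTEC and 78.5, 99.3 and 78.4 CPM in WT mTEC. The 3.94-fold difference (log2 1.98, SE 0.42) passed with an adjusted p of 0.0103, and it did so without any one of the 6 libraries. The annotated antisense gene Plet1os overlaps Plet1, and without strand in the library protocol reads of the 2 cannot be told apart.

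Ly6a (chr15:74994877-74998031, minus strand) and Igfbp5 (chr1:72857932-72874884, minus strand) were both lower in WT mTEC without passing. Ly6a had 2624, 2524 and 6176 CPM in WT cTEC and 1239, 1603 and 1881 CPM in WT mTEC (log2 -1.26, SE 0.41, adjusted p = 0.056). Igfbp5 had 584, 551 and 1295 CPM against 324, 319 and 438 CPM (log2 -1.17, SE 0.38, adjusted p = 0.0541). In both, replicate 3 of WT cTEC was the highest by a wide margin, and the mTEC libraries were all below the cTEC libraries. Without that library the log2 differences were smaller, -0.71 for Ly6a and -0.66 for Igfbp5, but less scattered, and passed with adjusted p of 0.0382 and 0.0354. With the pool of mice as a block, Ly6a and Igfbp5 passed as well, with adjusted p of 0.0455 and 0.0389. The fibroblast and thymocyte markers given above were lower in WT mTEC, as were these 2 genes and the 5 members that passed in that direction. Granulocyte markers (14.2 to 379 CPM in WT cTEC and 545 to 699 CPM in WT mTEC) and dendritic and B cell markers (2.35 to 6.27 and 20.1 to 27.4 CPM) were higher in mTEC, as was Plet1. The part of these 4 lists in the differences was not tested. Reads of Ly6a are also uncertain, since its transcript matched that of Ly6i at 85.6% identity over 804 of 955 bases.

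Itga6 (chr2:71745616-71858416, plus strand) had 426, 471 and 542 CPM in WT cTEC and 355, 359.5 and 417 CPM in WT mTEC, a log2 difference of -0.35 (SE 0.22, adjusted p = 0.29). Its direction depended on the unit. On the log2 TPM scale (with 0.5 added) it was 0.50 in favour of mTEC, and in the deposited rlog values 0.57, neither past the threshold, whereas over protein-coding transcripts alone the counts gave -0.53. The transcript estimates show where the scales part. In WT mTEC, 243 to 292 TPM were assigned to Itga6-205, a processed transcript of 443 bases annotated at chr2:71849437-71852635, against 69.3 to 140.1 TPM in WT cTEC. The protein-coding transcripts held 54.4, 33.2 and 46.6 TPM in WT mTEC and 87.5, 109.9 and 25.5 TPM in WT cTEC.

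**Figure D2:**
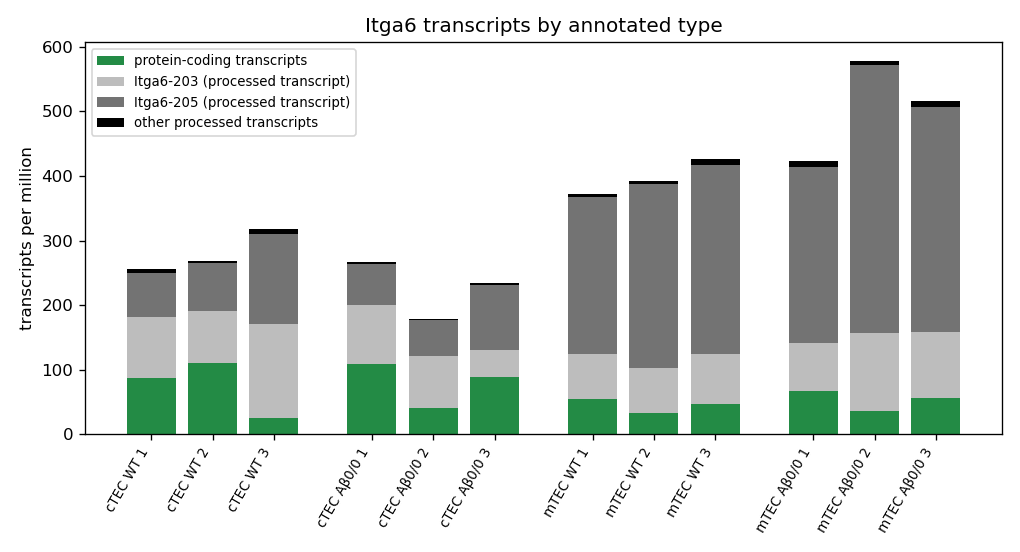
TPM of Itga6 (vertical axis) in each of the 12 libraries (horizontal axis), stacked by annotated transcript type. The dark grey part, Itga6-205, spans 54.6 to 140 TPM in the cTEC libraries and 243 to 416 TPM in the mTEC libraries, while the green protein-coding part is 25.5 to 109.9 TPM and 33.2 to 66.3 TPM.

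The same comparison, on libraries apart from those of WT but shared with the genotype comparisons, was made in Aβ0/0 mice, where 5.60% of 15687 genes passed and 2.15% were lower in mTEC. Groups did not overlap for Trp63, Pdpn, Pax1 and Pax9, higher in cTEC (12.7% of all genes), and for Plet1, higher in mTEC (15.1%). Pax1 was the member that passed: 685, 870.3 and 801 CPM in cTEC and 135, 147 and 144 CPM in mTEC, a 5.55-fold difference (log2 -2.47, SE 0.21, adjusted p = 0.00216). It passed without any one library. Trp63 had 653, 369 and 579.5 CPM in cTEC and 223, 264 and 295 CPM in mTEC. The groups did not overlap, but the difference, log2 -1.04 (SE 0.27), gave an adjusted p of 0.0717. For Trp63 it was log2 -1.26 without cTEC replicate 2, and it passed in none of the 6 fits without 1 library (edgeR, adjusted p from 0.0529 to 0.209). Pdpn (58.8 to 64.5 CPM against 26.4 to 41.2 CPM) had a log2 difference of -0.84 (SE 0.31, adjusted p = 0.195). Plet1 had 9.88, 31.8 and 7.83 CPM in Aβ0/0 cTEC and 135, 124 and 55.5 CPM in mTEC, a log2 difference of 2.66 (SE 0.63, adjusted p = 0.0519), and it passed with the pool of mice as a block (adjusted p = 0.0401, so that 2 members passed). It also passed without cTEC replicate 2, its highest cTEC library (log2 3.55, adjusted p = 0.0286). The intervals of the log2 differences of Igfbp5 (-0.61 to 0.96), Ly6a (-0.82 to 0.46), Itgb4 (-1.39 to 0.53), Sox9 (-0.46 to 0.61), Pax9 (-1.04 to 0.20) and Itga6 (-0.15 to 0.94) all held 0. For Itga6 the unit mattered here too: its log2 difference of 0.39 by counts was 1.16 on the log2 TPM scale, where it passed (limma, adjusted p = 0.0213), 1.20 in the rlog values (adjusted p = 0.0794) and -0.29 in counts over protein-coding transcripts (adjusted p = 0.721). Of the 10 hemidesmosome partners none passed here (edgeR), 1 at an unadjusted p under 0.05, against 2792 of all 15687 genes. Of the 14 basal and p63-linked genes 3 passed: Krt5 and Krt17 were higher and Bnc1 lower in mTEC. Of the 6 fits that left out 1 library each, Krt5 passed in 2, Krt17 in 3 and Bnc1 in 0 (edgeR, adjusted p from 0.0809 to 0.158). Fibroblast markers (2374 to 3059 CPM in cTEC and 311 to 630 CPM in mTEC) and thymocyte markers (657 to 1031 and 68.8 to 160 CPM) were lower in Aβ0/0 mTEC. Pericyte and smooth muscle markers (426 to 647 and 1225 to 1930 CPM) were higher. The part of these lists in the differences was not tested.

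**Figure D3:**
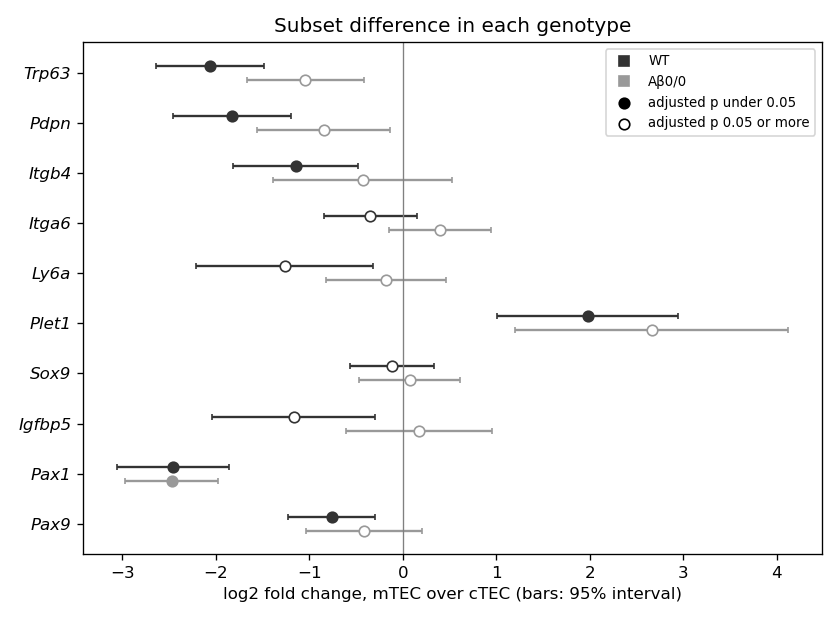
Log2 fold change of mTEC over cTEC (horizontal axis) for each gene, in WT (dark) and in Aβ0/0 mice (grey), with 95% intervals; filled symbols passed the test. In WT, 6 symbols are filled, and in Aβ0/0 only Pax1, at -2.47.

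The other lists were read between the subsets in the same way, against the 26.8% of all genes that passed in WT and the 5.60% in Aβ0/0. Of 9 pouch and thymus transcription factors 3 passed in WT, a share near that of all genes, each lower in mTEC: Hoxa3, a patterning factor of the pharyngeal pouches (log2 -2.09, adjusted p = 0.0254, but 0.0918, 0.093 and 0.0574 without mTEC replicate 1, 2 or 3), Isl1 (log2 -1.47) and Eya1 (170 ± 19.9 against 74.7 ± 10.3 CPM, log2 -1.18). In Aβ0/0, 1 of 8 passed, Foxn1, the master regulator of TEC differentiation, with 264 ± 46.5 CPM in cTEC and 81.6 ± 37.8 CPM in mTEC (log2 -1.70, adjusted p = 0.0429). Foxn1 passed without mTEC replicate 3 (adjusted p = 0.0476) but not without any one of the other 5 libraries (0.0804 to 0.134). Of 12 other reported markers of immature TEC, 6 passed in WT, with 4 higher in mTEC, among them the chemokine gene Ccl21a (log2 3.20, whose near-identical copies make its counts uncertain), the tight junction gene Cldn3 (log2 2.86) and Cd24a (log2 1.83), and 2 lower, among them Ly6e (log2 -1.15), a relative of Ly6a, whose call was lost without mTEC replicate 1, 2 or 3 (adjusted p = 0.102, 0.105 and 0.0928). In Aβ0/0, 5 of the 12 passed, 4 of them higher in mTEC.

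Among the 11 other IGF and IGFBP genes, 5 passed in WT. The growth factor gene Igf2 was higher in mTEC, at 19.6 ± 7.64 against 1.36 ± 1.04 CPM (log2 3.84, adjusted p = 0.0126, and 0.0626 without mTEC replicate 2), and 4 binding protein genes were lower, led by Igfbp7 (373 ± 131 CPM in cTEC against 25.5 ± 15.2 CPM in mTEC, log2 -3.87), Igfbp3 (log2 -2.51) and Igfbp2 (log2 -2.38). In Aβ0/0 these 3 passed as well, with log2 differences of -4.21, -3.66 and -2.01. Igfbp5, by comparison, differed by -1.17 in WT and 0.18 in Aβ0/0, neither past the threshold. Sox4 was the one Sox gene of 6 to pass in WT, higher in mTEC (443 ± 52.2 against 178 ± 16.2 CPM, log2 1.32), and it passed in Aβ0/0 too (log2 1.35), although there, when 1 library was left out, it passed only without cTEC replicate 1 (adjusted p = 0.0271) and otherwise had an adjusted p from 0.0631 to 0.137. Sox9 passed in neither. Over all 6 lists, 14 of the 29 companion genes called in WT passed without any one library, as did 3 of the 13 called in Aβ0/0, Igfbp7, Igfbp3 and Igfbp2. Between genotypes in cTEC, and in the interaction, no gene of these 6 companion lists passed (edgeR). At an unadjusted p under 0.05 there were none in cTEC and 5 in the interaction. Over all genes there were 333 of 15432 in cTEC and 1343 of 19461 in the interaction.

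The next comparison asked what lack of MHCII changes in mTEC. Igfbp5 was the member that passed. It had 324, 319 and 438 CPM in WT mTEC and 737, 870.5 and 638 CPM in Aβ0/0 mTEC, with every Aβ0/0 library above every WT library, and was 2.10-fold higher in Aβ0/0 (WT over Aβ0/0: log2 -1.07, SE 0.20, adjusted p = 0.0352). Over all 18636 genes tested, 5.66% passed, 5.32% higher in WT and 0.338% higher in Aβ0/0. The number that passed rose from 1054 to 2377 without Aβ0/0 replicate 1. It fell to 83 and 13 without Aβ0/0 replicate 2 or 3, and to 0 without WT replicate 1, 2 or 3. The call of Igfbp5 was not stable: leaving out Aβ0/0 replicate 1 kept it (adjusted p = 0.0367), while without WT replicate 1, 2 or 3, or Aβ0/0 replicate 2 or 3, the adjusted p was 0.138, 0.13, 0.13, 0.068 and 0.0779, with the log2 difference between -1.22 and -0.97 in all 6 fits. With the replicate number as a block it did not pass either (adjusted p = 0.23), nor did any gene (edgeR, 2929 at an unadjusted p under 0.05). Pericyte and smooth muscle markers summed to 846 to 1150.3 CPM in WT mTEC and 1225 to 1930.4 CPM in Aβ0/0 mTEC (Acta2 was the highest, and none of the 5 was at 0). Granulocyte markers went the other way, with 545 to 699 CPM in WT mTEC and 78.3 to 297 CPM in Aβ0/0 mTEC, where Ngp was at 0. Dendritic and B cell markers, at 20.1 to 27.4 CPM in WT mTEC and 2.04 to 18.0 CPM in Aβ0/0 mTEC, did not overlap either, and Itgax and Clec9a were at 0 in the latter. Mature mTEC genes summed to 23362 to 28508 CPM in WT mTEC and 11082 to 22581 CPM in Aβ0/0 mTEC (Cd74 was the highest), again without overlap, and 2 of the 13 passed, both higher in WT. The part of these 4 lists in the differences was not tested.

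The median log2 difference of the 10 genes was -0.45, against 0.00 over all genes, and 9 of the 10 genes had a negative difference (higher in Aβ0/0), as did 49.9% of all genes. In 5 of them, Igfbp5, Trp63, Pdpn, Pax1 and Sox9, every Aβ0/0 library lay above every WT library, which was so for 7.67% of all genes. An unadjusted p under 0.05 was seen for 5 members, all higher in Aβ0/0, and for 5.12% of all genes in that direction. Trp63 had 133, 129.5 and 176 CPM in WT mTEC and 223, 264 and 295 CPM in Aβ0/0 mTEC, a 1.81-fold difference (log2 -0.85, SE 0.20) that did not pass (adjusted p = 0.0579), though it did without Aβ0/0 replicate 1 (adjusted p = 0.0372). Pdpn had 14.4, 16.2 and 22.8 CPM in WT and 26.4, 41.2 and 35.9 CPM in Aβ0/0 (log2 -0.97, SE 0.32, adjusted p = 0.183). Pax1 differed less, with 98.4 to 113 CPM in WT and 135 to 147 CPM in Aβ0/0 (log2 -0.42, SE 0.16, adjusted p = 0.258). With DESeq2 in place of edgeR, 4 of the 10 passed: Igfbp5, Trp63 (adjusted p = 0.00322), Pax1 (0.0159) and Pdpn (0.0234). That tool passed 2457 genes, against 1054 by edgeR, and over the 21469 genes it tested the median log2 difference was 0.20. The median of the 10 members was -0.43 by DESeq2, against -0.45 by edgeR.

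None of the remaining members passed in mTEC. Itga6 had 355 to 417 CPM in WT and 411 to 617 CPM in Aβ0/0 (log2 -0.48, SE 0.19, adjusted p = 0.285). Sox9 had 147 to 166 CPM in WT and 181 to 191.5 CPM in Aβ0/0, close but not overlapping (log2 -0.28, SE 0.15, adjusted p = 0.473). Itgb4 (165 to 281 and 238.4 to 441 CPM, log2 -0.53, SE 0.32, adjusted p = 0.539, and -0.17 without Aβ0/0 replicate 1), Plet1 (78.4 to 99.3 and 55.5 to 135 CPM) and Pax9 (59.6 to 79.3 and 72.4 to 73.8 CPM) overlapped. Ly6a was the one member with a positive difference, 0.08 on the log2 scale with an interval from -0.59 to 0.74, and its sign turned without Aβ0/0 replicate 1 (-0.07), without Aβ0/0 replicate 3 (-0.05) and without WT replicate 3 (-0.05).

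**Figure D4:**
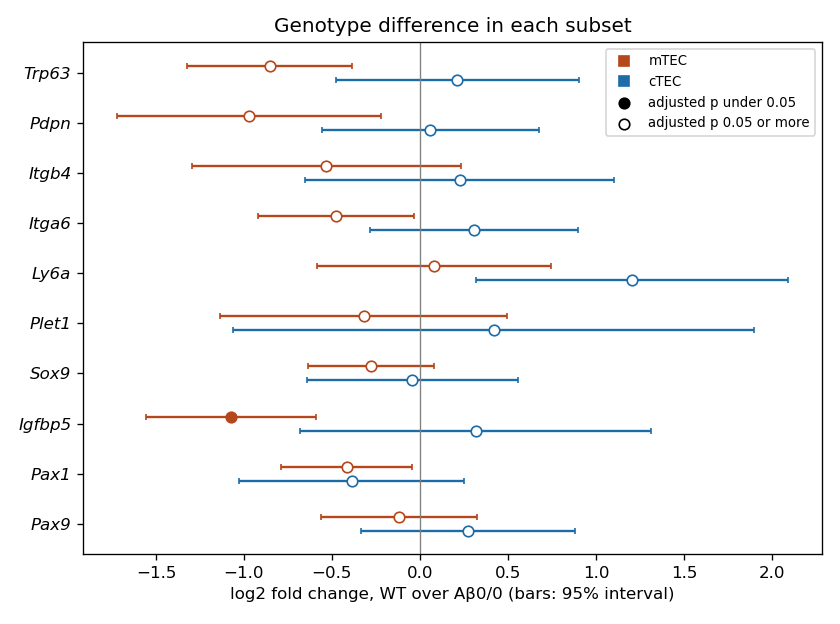
Log2 fold change of WT over Aβ0/0 (horizontal axis) for each gene in mTEC (orange) and cTEC (blue), with 95% intervals; filled symbols passed the test. In mTEC, 9 of 10 symbols lie left of 0 and Igfbp5, at -1.07, is filled; in cTEC none is filled.

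The partners of these genes were read in the same mTEC comparison. Of the 10 hemidesmosome and laminin-binding genes, all 10 had higher means in Aβ0/0 mTEC, with a median log2 difference of -0.67, and 2 passed. Dst, which encodes a plakin that anchors keratins to hemidesmosomes, had 171.0, 169 and 173 CPM in WT and 256, 305 and 417 CPM in Aβ0/0 (log2 -0.95, SE 0.21, adjusted p = 0.0486). Lama3, a chain of laminin-332, had 105, 93.0 and 94.7 CPM in WT and 197, 156 and 158 CPM in Aβ0/0 (log2 -0.83, SE 0.18, adjusted p = 0.0484). The counts at an unadjusted p under 0.05 below stand against 2859 of all 18636 genes, in either direction. Of the 14 basal and p63-linked genes none passed (edgeR), 4 at an unadjusted p under 0.05, and 11 had negative differences (median -0.27). Of 9 transcription factors of the pharyngeal pouch and thymus none passed, 3 at an unadjusted p under 0.05, and of 12 other reported markers of immature TEC none passed, 2 at an unadjusted p under 0.05. Among 11 IGF and IGFBP genes Igfbp6 passed in the direction opposite to Igfbp5, with 47.0, 36.9 and 47.2 CPM in WT and 5.16, 11.1 and 2.41 CPM in Aβ0/0 (log2 2.80, SE 0.57, adjusted p = 0.0378). None of 6 Sox genes passed, 2 at an unadjusted p under 0.05, both higher in WT. When each of the 6 libraries was left out in turn, Dst and Lama3 passed only without Aβ0/0 replicate 1 (adjusted p = 0.0298 and 0.0438), and Igfbp6 passed in none of these fits (edgeR, adjusted p from 0.0522 to 0.14).

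The cTEC comparison shared no library with the mTEC comparison, but its libraries came from the same pools of mice. None of the 10 genes passed between genotypes in cTEC (edgeR), 1 had an unadjusted p under 0.05, and DESeq2 and limma passed none either. H2-Ab1, the disrupted gene, passed in mTEC (log2 1.81, adjusted p = 0.0352, edgeR) but not in cTEC (log2 1.47, SE 0.34, adjusted p = 0.695). In cTEC too, every WT library lay above every Aβ0/0 library for H2-Ab1. A gene that did not pass in cTEC is therefore not shown to be unchanged. Over all genes, 0.0194% of 15432 passed, and 1.45% had an unadjusted p under 0.05 with the higher level in WT. Log2 differences were above 0 for 8 of the 10 genes and for 55.2% of all genes. Ly6a was the gene with the unadjusted p: 2624, 2524 and 6176 CPM in WT cTEC and 1652, 1743 and 1595 CPM in Aβ0/0 cTEC, without overlap, as in 4.35% of all genes (log2 1.21, SE 0.39, unadjusted p = 0.0131, adjusted p = 1.0). Without WT replicate 3 the log2 difference was 0.65. Thymocyte markers (352 to 578 CPM in WT cTEC and 657 to 1031 CPM in Aβ0/0 cTEC) and endothelial markers (48.2 to 96.0 and 26.6 to 40.9 CPM) did not overlap between these groups either. Sums of fibroblast markers and of pericyte and smooth muscle markers overlapped. Yet log2 differences were above 0 for all 9 fibroblast markers (median 0.80) and all 5 pericyte and smooth muscle markers (median 0.73). None of these passed (edgeR). The part of these lists was not tested. Trp63 (497 to 698 CPM in WT and 369 to 653 CPM in Aβ0/0), Pdpn (54.9 to 77.3 and 58.8 to 64.5 CPM), Igfbp5 (551 to 1295 and 450.4 to 999.7 CPM) and Pax1 (458 to 759 and 685 to 870.3 CPM) overlapped between genotypes. The intervals of their log2 differences, -0.48 to 0.90 for Trp63, -0.56 to 0.67 for Pdpn, -0.68 to 1.31 for Igfbp5 and -1.03 to 0.25 for Pax1, were wide, and that of Pax1 held its value in mTEC while the other 3 did not. The sign for Igfbp5 turned when WT replicate 3 was left out (-0.20). Plet1 was at 9.18 to 28.9 CPM in WT and 7.83 to 31.8 CPM in Aβ0/0, and Itgb4, Itga6, Sox9 and Pax9 likewise overlapped, with log2 differences between -0.04 and 0.31.

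Whether the genotype difference itself differed between mTEC and cTEC was tested as an interaction over all 12 libraries. None of the 10 genes passed (edgeR; by DESeq2 and limma none either), and 0.0103% of 19461 genes did. An unadjusted p under 0.05 was seen for 4 members with the negative sign, against 2.94% of all genes, and 9 of the 10 values were below 0, against 51.7% of all genes: Igfbp5 -1.35 (SE 0.53), Trp63 -1.03 (SE 0.36), Pdpn -0.99 (SE 0.39) and Itga6 -0.75 (SE 0.30), with adjusted p from 0.534 to 0.622. Without WT cTEC replicate 3 the value for Igfbp5 was -0.84. Pax1 had an interaction of 0.01 with an interval from -0.64 to 0.66. A difference between the subsets in the response of these genes was therefore not detectable by this test.

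Trp63 was also resolved by its starts. The internal start at position 25801916 of chromosome 16 is used by 4 annotated transcripts and the upstream start near 25683763 by 4 others. Transcripts from the internal start held 90.5, 91.9 and 70.4% of Trp63 TPM in WT cTEC, 91.6, 74.6 and 86.5% in Aβ0/0 cTEC, 80.3, 63.3 and 69.9% in WT mTEC and 78.9, 63.4 and 63.4% in Aβ0/0 mTEC. Means were 13.1 percentage points lower in mTEC than in cTEC in WT and 15.7 points lower in Aβ0/0 (two-sided exact permutation test, n = 3 against 3, p = 0.2 for both, where 0.1 is the smallest p possible). The WT difference was -20.0 points without cTEC replicate 3 and -9.18 points without mTEC replicate 2. Without cTEC replicate 2 the Aβ0/0 difference was -20.5 points. Paired by pool of mice, a test added after seeing the data, the share was lower in mTEC in 6 of 6 pools, with differences of -28.6 to -0.51 points. The paired exact permutation test gave p = 0.25 in each genotype and p = 0.03125 over the 6 pools, the smallest p that 3 and 6 pairs allow. Without Trp63-206, described next, the differences were only -0.37 to 0.09 points, with a mean of -0.13. The share was then lower in 5 of 6 pools and the paired exact p was 0.125. Between genotypes the means differed by 2.61 points in mTEC and 0.02 points in cTEC (exact permutation p = 0.7 and 1.0).

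The upstream share rested on a single short transcript, Trp63-206, which starts upstream, ends at 25821318 after 4 exons and was estimated at 10.6 to 46.0 TPM in the 12 libraries. The other 3 upstream transcripts, which run into the rest of the gene, summed to 0.28 TPM or less in every library. Leaving out Trp63-206, the internal start held at least 99.6% of TPM in each library. The exons of Trp63-206 after the first are shared in part with other transcripts, so its estimate depends on reads that several models could have given.

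**Figure D5:**
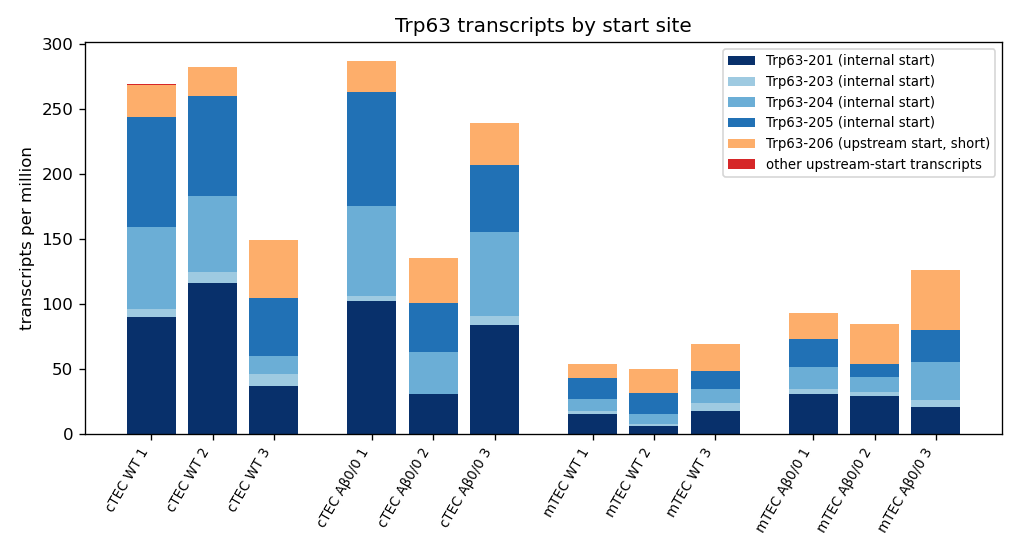
TPM of Trp63 (vertical axis) in each library (horizontal axis), stacked by transcript; blue shades start at the internal site and orange is Trp63-206. The other upstream transcripts (red) sum to at most 0.28 TPM and are hardly visible.

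Likeness between patterns was described by Pearson r of the deposited rlog values over the 12 libraries, which share their group structure. Trp63 and Pdpn were the most alike of the 45 pairs of members (r = 0.949), and Pax1 was like both (r = 0.896 and 0.893). Plet1 ran opposite to Pax1 (r = -0.838), Pdpn (r = -0.818) and Trp63 (r = -0.806). After subtraction of group means, r was 0.427 for Trp63 with Pdpn, 0.264 for Trp63 with Pax1 and -0.155 for Pdpn with Pax1. For Plet1 it was 0.512 with Pax1, -0.536 with Pdpn and -0.406 with Trp63, so that Pax1 with Pdpn and Plet1 with Pax1 changed sign. Among 18016 genes with a mean of at least 10 counts, the 3 most like Trp63 were Ptprz1 (r = 0.986), Efemp2 (0.983) and Tcf4 (0.975). For Pdpn they were Sparc (0.977), Apoe (0.973) and Nrip1 (0.964), and for Pax1 Prss16 (0.990), the thymus-specific serine protease of cTEC, Ybx3 (0.989) and Nbl1 (0.987). Those of Plet1 were Chgb (0.975), Serpinb2 (0.970) and Acacb (0.965), and those of Itgb4 were Kansl1 (0.969), Il6st (0.967) and Gprasp2 (0.951). For Ly6a they were Isg15 (0.965), an interferon-induced gene, Apoc1 (0.925) and Tmem217 (0.923). Itga6, whose rlog values carry the unit dependence above, was most like Olfr716 (0.985), Gc (0.964) and Nfe2l1 (0.957). Sox9 was most like the immediate early gene Jun (0.930), Socs3 (0.910) and Supt5 (0.902). Igfbp5 (Rere 0.909, Ephb6 0.898, Nradd 0.892) and Pax9 (Tcrg-C2 0.903, Zfp867 0.900, Sept11 0.899) had the least close neighbours.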

How the data were processed

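RNA from 12 sorted pools (3 per group) had been amplified with the SMART-Seq v4 kit and sequenced as paired 50-base reads. The submitters' processing notes name bcl2fastq 2.20.0, Trim Galore, kallisto 0.43, DESeq2 and mm10. The deposited per-sample tables hold, per transcript, estimated counts and TPM from kallisto, and the authors also deposited one table of rlog values (log2 scale) made with DESeq2.

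Here, 107987 of 109282 transcripts were matched to GENCODE M21 and summed per gene, and estimated counts were rounded. Unmatched transcripts held 0.45 to 0.512% of counts. Genes were tested with edgeR 4.0.16 (R 4.3.3; TMM, filterByExpr, robust quasi-likelihood) within the 6 libraries of each comparison, or all 12 for the interaction, with Benjamini-Hochberg adjustment over all genes and a threshold of 0.05. CPM values use TMM over 12 libraries, and intervals are 95%. Alternatives were other size factors, filters, DESeq2 1.42.0, limma 3.58.1 on rlog or log2(TPM + 0.5), blocks, leaving out each library and, chosen after seeing the data, protein-coding transcripts alone. Scripts were tested on simulated data with 200 changed genes.

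The members and companion lists were chosen with earlier results of these data known. Named companions are those past the threshold, at most the 4 of largest difference, and per member the 3 genes of highest r. Same-numbered cTEC and mTEC of 1 genotype come from 1 pool of mice by the study's sort records (correlations of deviations 0.0381 to 0.2402), so a block on pool applies there. The main fits and the calls of companion genes leave this block out. Those records list WT and Aβ0/0 side by side under each number without stating a shared session. The fit without a block was therefore kept there. Correlations across genotypes ran from -0.0391 to 0.2447. Those of replicate 1 (0.232 in mTEC and 0.2447 in cTEC) were close to those within its pools (0.2186 in WT and 0.2402 in Aβ0/0). Those of replicates 2 and 3 were 0.0799 or less. Whether the libraries of replicate 1 shared a step of handling was not tested. P-values measure the spread between pools. Depth of 21710319 to 36139815 counts leaves the error of counting reads small for members, the lowest being Plet1 at 7.83 CPM. It does not bound the error from sorting and amplifying few cells. By the study's sort records every WT mTEC pool yielded more cells than every Aβ0/0 mTEC pool. Cell yield and genotype therefore cannot be told apart in mTEC.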

Additional observations from a re-analysis of the deposited data

How the results depend on the processing

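Between mTEC and cTEC in WT, Pax1, Trp63, Pdpn and Plet1 passed without any one library and under all 9 alternatives, while Itgb4 passed in 3 of 6 fits without a library and Pax9 in 1 of 6, and each in 6 of 9 alternatives. Members past the threshold there numbered 6, with 4 on rlog, 7 with the block on pool and 8 by DESeq2 and without the filter. The count of all genes in WT was 4997 and fell to 3820 with the block on pool and to 2760 in a fit on all 12 libraries. Between the subsets in Aβ0/0, Pax1 passed without any one library and under all 9 alternatives. Between genotypes in mTEC the count was 1054 and became 27 without a low-count filter, 11 with a mean of at least 10 counts, 2457 by DESeq2, 20 on all 12 libraries and 0 with the replicate block, where WT and Aβ0/0 of one number are different pools. Members past it there went from 1 to 4 by DESeq2 and to 0 without the filter, at a mean of 10, with limma on rlog, on all 12 libraries and with the block (Igfbp5 adjusted p = 0.23). In cTEC the count of 3 became 7 without the filter, 123 by DESeq2, 5 with limma on rlog and on log2 TPM, 16 on all 12 libraries, 1 over protein-coding transcripts and 0 with the block. In Aβ0/0 between subsets the count of 878 became 2760 by DESeq2, 501 with limma on rlog, 1819 on all 12 libraries and 566 over protein-coding transcripts. Members there went from 1 to 2 with RLE size factors, without the filter and with the block on pool, to 4 by DESeq2 and to 3 with log2 TPM and on all 12 libraries. For the interaction, 2 became 395 by DESeq2, 769 with limma on rlog, 404 on log2 TPM and 0 with the block on pool. The cause of these moves was not tested.

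Directions turned for Pdpn in cTEC (-0.0101 on rlog, -0.0418 on log2 TPM), Itga6 in cTEC (-0.0795, protein-coding), Itga6 between subsets in WT (0.57 on rlog, 0.50 on log2 TPM) and in Aβ0/0 (-0.29, protein-coding), Sox9 between subsets in Aβ0/0 (-0.12, log2 TPM), the Pax1 interaction (-0.0107 without the filter, -0.0216 protein-coding) and the Trp63 start share in mTEC (-0.0848 points without Trp63-206). Protein-coding transcripts alone and leaving out Trp63-206 were chosen after seeing the data.

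Leaving out each library in turn gave 0 to 2377 genes and 0 to 2 members between genotypes in mTEC (0 genes without any WT mTEC replicate, 2377 without Aβ0/0 replicate 1), 1 to 3 genes and 0 members in cTEC, 3395 to 7572 genes and 4 to 8 members between subsets in WT (7572 without cTEC replicate 3), 338 to 456 genes and 1 to 2 members in Aβ0/0, and 1 to 18 genes and 0 members for the interaction (18 without Aβ0/0 mTEC replicate 1). Log2 differences that crossed 0 were those of Ly6a in mTEC (-0.0723 to 0.398), in cTEC Trp63 (-0.00259 to 0.399), Pdpn (-0.118 to 0.138), Itgb4 (-0.0562 to 0.709), Sox9 (-0.17 to 0.126) and Igfbp5 (-0.203 to 0.766), between subsets in Aβ0/0 Itgb4 (-0.836 to 0.00947), Sox9 (-0.0591 to 0.201) and Igfbp5 (-0.0752 to 0.585), and the Pax1 interaction (-0.145 to 0.271). The Trp63 start share differed between genotypes by -1.97 to 7.77 points in mTEC and -4.82 to 6.97 points in cTEC. For mTEC against cTEC it differed by -20.0 to -9.18 points in WT and -20.9 to -12.0 points in Aβ0/0.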

Other observations

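Among the members' less used transcripts, Igfbp5-202, a processed transcript of 4281 bases, was estimated at 63.7 TPM in WT cTEC replicate 3 and 15.8 TPM in Aβ0/0 mTEC replicate 2, and at 0.678 TPM or less in the other 10 libraries.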
